A study of Canis lupus familiaris with 51 samples.

Results

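UCHL1 (ubiquitin C-terminal hydrolase L1), UCHL3, UCHL5 and BAP1 were examined tumor by tumor in 51 canine cutaneous mast cell tumors (MCTs). All probes that carried one of these 4 gene names were taken, which gave 7 of the 43603 non-control probes of the array: 2 for UCHL1, 1 for UCHL3, 1 for UCHL5 and 3 for BAP1. The 4 genes are 4 of 11689 distinct gene symbols on the array. UCHL1 was chosen on its measured level in these arrays, where it was higher in undifferentiated than in differentiated reference tumors, so its spread among the tumors is a description and carries no test. The other members were taken as its family. The labels of the tumors do not give their class, and no comparison of classes was made.

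The tumors were spontaneous cutaneous MCTs of privately owned dogs, and each array held the RNA of 1 tumor, taken from the center of the mass during surgery. The labels record 30 female and 19 male dogs and give no sex for 2. Ages of 49 dogs ran from 3 to 14 years (median 8). There were 9 Boxer, 9 Labrador Retriever and 14 Crossbred dogs, 17 of other breeds and 2 without a breed. No normal skin, untreated control or repeat array of a tumor was used here, so each value is a single measurement of 1 tumor in which mast cells and other cells of the mass are mixed, and fewer cells of a type cannot be told apart from less RNA per cell. Of the 10 mast cell marker genes listed, the 5 found by symbol (KIT, CMA1, FCER1A, MS4A2 and HPGDS) were well above background on all 51 arrays, with a mean log2 level between 12.91 and 16.16. Between 59.4% and 74.8% of the spots per array were well above background, and the arrays came from 15 slides scanned in 9 sessions.

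Ubiquitin is a small protein that cells attach to other proteins to send them to the proteasome or to change what they do, and deubiquitinases take it off again. The ubiquitin C-terminal hydrolases are one family of deubiquitinases, with a cysteine in the active site. UCHL1 is abundant in neurons and neuroendocrine cells and low in most other adult tissues. UCHL3 is its closest relative, is made in most tissues and also acts on NEDD8, a protein similar to ubiquitin. UCHL5 (also UCH37) works at the proteasome, held there by ADRM1, and in the INO80 chromatin remodeler. BAP1 is a nuclear member that, with an ASXL protein, removes ubiquitin from histone H2A, and it is a tumor suppressor in several human cancers.

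Each probe is a single strand of DNA 60 bases long. The sequences of the probes that cross an exon junction, and of the only UCHL3 probe, are shown so that each reading can be traced to its bases. Positions are those of the scanner output, which does not name its genome build. The second UCHL1 probe lay on chr3:74228840-74229837, minus strand, and the UCHL3 probe on chr22:32344465-32344524, plus strand. The second BAP1 probe lay on chr20:40358322-40358579 and the third on chr20:40358149-40358332, both on the plus strand. The UCHL1 probe and both BAP1 probes cover more of the genome than their own length, 998, 258 and 184 bases, and therefore cross an intron. Capitals mark the 11 bases that both BAP1 probes share, so these probes overlap in part of their sequence. Their readings had an r of 0.96 with each other (n = 51).
UCHL1, the second probe: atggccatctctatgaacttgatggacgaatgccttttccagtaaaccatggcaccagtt
UCHL3 probe: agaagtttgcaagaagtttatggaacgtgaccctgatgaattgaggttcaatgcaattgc
BAP1, the second probe: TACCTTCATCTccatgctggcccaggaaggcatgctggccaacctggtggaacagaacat
BAP1, the third probe: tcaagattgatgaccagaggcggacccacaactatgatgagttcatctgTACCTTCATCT

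No probe shared a run of more than 6 bases with a probe of another member. The brightest UCHL1 probe (chr3:74223064-74223123), the UCHL5 probe (chr38:9043669-9043728) and the brightest BAP1 probe (chr20:40359321-40359380) lie in 1 unbroken stretch of 60 bases each. Whether these stretches are coding or untranslated was not determined, since no annotation of the same build was at hand.

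UCHL1 differed among the tumors far more than its relatives. Levels are log2 of the processed intensity after quantile normalization, so a difference of 1 is a doubling. With the brightest probe, UCHL1 ran from 7.20 in T135 to 13.29 in T73, with a median of 9.82 and quartiles of 9.39 and 10.38. The SD over the 51 tumors was 1.26, larger than that of 93.2% of all probes. The highest tumor stood 67.9-fold above the lowest and 11.1-fold above the median. UCHL1 was well above background in 51 of 51 tumors by this probe.

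A group of 5 tumors formed the top of the order, with 13.29 in T73, 13.15 in LM0, 12.85 in T57.1, 12.75 in T114.1 and 12.47 in T9.1. The next tumor, T61, was at 11.34, a gap of 1.12 that was the widest between neighbors in the order. T115, T104, T77 and T49 followed between 11.33 and 11.11, and from there down to T130 neighbors in the order were at most 0.37 apart. The bottom of the order was again spread out, with 8.24 in T130, 7.84 in T82 and 7.20 in T135. Dogs of both sexes were found at the top, and the 5 highest tumors came from a Labrador Retriever, a Crossbred, a Boxer and dogs of other breeds. By name, T73, T57.1 and T9.1 match undifferentiated references listed in the paper, among the tumors on which UCHL1 was chosen. Their high place therefore follows in part from that choice. T90, also listed there as undifferentiated, was at 9.98.

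The second UCHL1 probe gave nearly the same order (r = 0.93, rho = 0.89 between the probes, n = 51) at a dimmer level. It ran from 2.05 to 10.08 with a median of 5.46 and an SD of 1.99, and it was well above background in 37 of 51 tumors. The same 5 tumors led it in the same order, from 10.08 in T73 to 9.16 in T9.1, ahead of 7.85 in T115. In the 14 tumors where it was not well above background, its level has no meaning as an order.

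The relatives were expressed in every tumor and had smaller SDs than UCHL1. UCHL3 ran from 11.29 in T102 to 13.30 in T104 with a median of 12.27, a 4.03-fold range, and its SD of 0.48 (n = 51) was larger than that of 45.7% of all probes. UCHL5 ran from 12.39 in T117.2 to 14.09 in T132 with a median of 12.80 (SD 0.28). Its highest tumor lay apart, since T135, the next one, was at 13.25. The brightest BAP1 probe ran from 9.05 in T9.1 to 10.38 in T6.2 with a median of 9.86 (SD 0.22), and only 5.58% of all probes had a smaller SD. The other BAP1 probes were dimmer, with medians of 7.46 and 7.06, and spread more, with SDs of 0.42 and 0.58, larger than those of 37.6% and 57.9% of all probes. All 3 BAP1 probes were lowest in T9.1, at 9.05, 5.58 and 3.92, against 9.44, 6.48 and 5.81 in the tumors next to it. Levels of different probes depend on the probe, so the genes are compared by their changes among tumors and not by height.

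**Figure D1:**
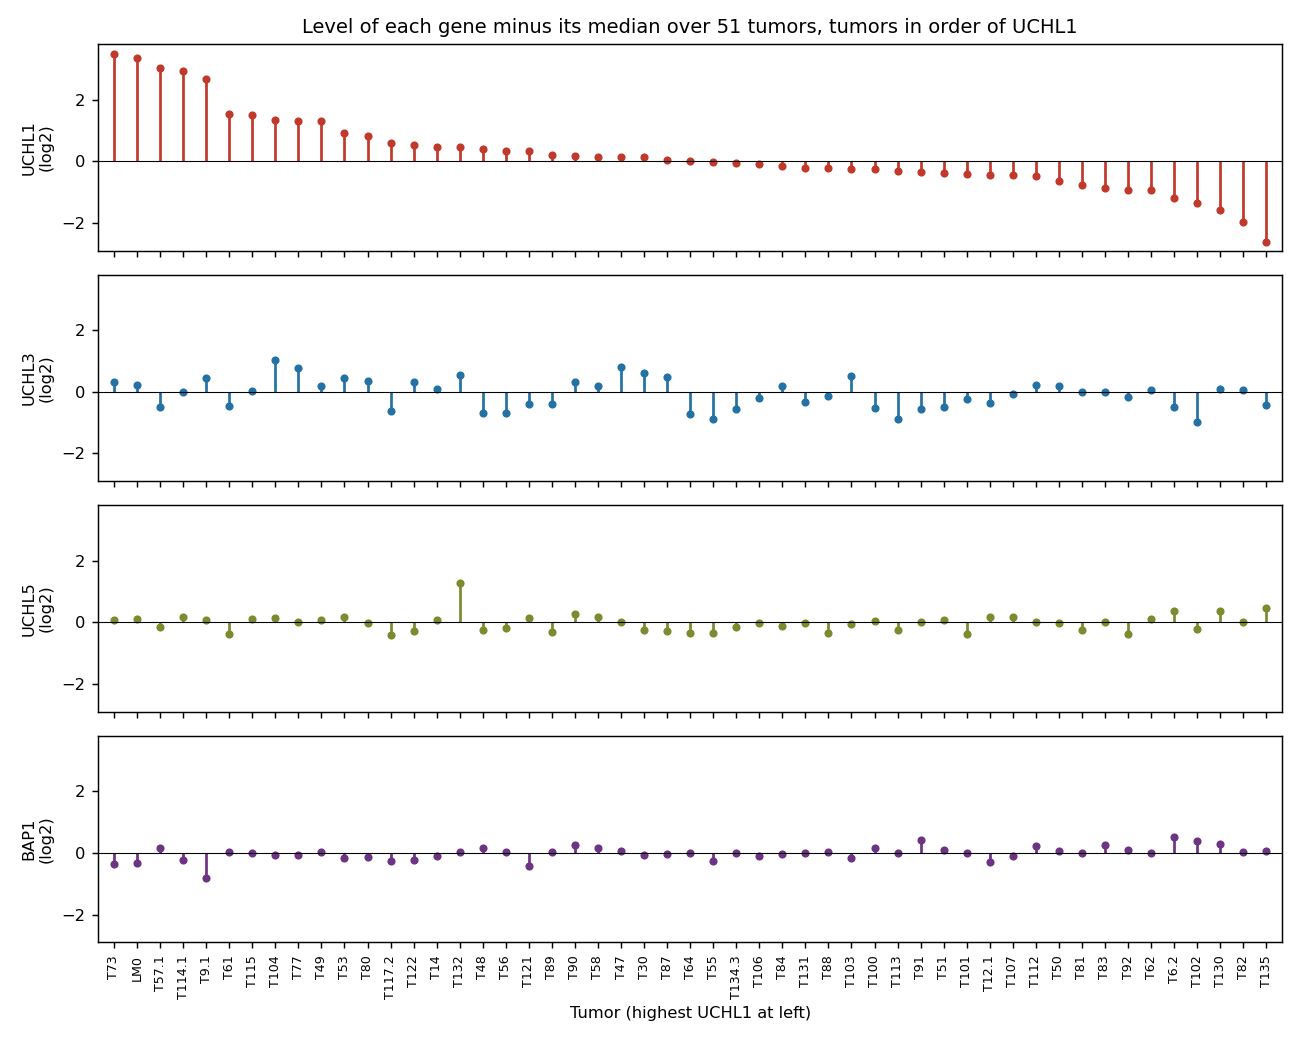
Log2 level of UCHL1, UCHL3, UCHL5 and BAP1 (brightest probe of each) minus the gene's own median over the 51 tumors, with tumors ordered by UCHL1 along the horizontal axis and the same vertical scale in all panels. UCHL1 reached 3.47 above its median in T73 and was at -2.61 from it in T135, while the largest deviations of the others were 1.03 for UCHL3 in T104, 1.29 for UCHL5 in T132 and -0.81 for BAP1 in T9.1.

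The 5 tumors with the most UCHL1 ranked 49, 48, 10, 44 and 51 for BAP1, in the order T73, LM0, T57.1, T114.1 and T9.1, so that all but T57.1 lay near the bottom for BAP1. Their ranks for UCHL3 and UCHL5 were spread more widely. T73 was rank 13 for UCHL3 and rank 16 for UCHL5, counted from the highest of 51, and LM0 was close to it, with ranks 14 and 15. T57.1 was at ranks 41 and 34, T114.1 at 27 and 8 and T9.1 at 8 and 18. At the other end, T135 was rank 37 for UCHL3 but rank 2 for UCHL5, and T102 had the lowest UCHL3 of all tumors and rank 3 for BAP1.

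Over the 51 tumors UCHL1 and BAP1 ran in opposite directions. Pearson's r between their brightest probes was -0.52 (95% interval -0.70 to -0.29) and Spearman's rho was -0.49, with Benjamini-Hochberg adjusted p of 0.00054 and 0.0019 over the 6 pairs of members (2-sided permutation tests). UCHL1 was chosen because it was higher in undifferentiated reference tumors of these arrays. The permutation p of its pairs with BAP1, UCHL3 and UCHL5 do not allow for that choice, and a relation through tumor class was not tested. Without T73 and LM0, the tumors farthest from the median of UCHL1, r was -0.45 (adjusted permutation p = 0.0090). With the other BAP1 probes it was -0.45 and -0.44. It was -0.47 on deviations from slide means (adjusted permutation p = 0.020, without T6.2, alone on its slide) and -0.45 on deviations from scan session means (adjusted permutation p = 0.0099, n = 46, without LM0, T117.2, T134.3, T135 and T6.2), while within single sessions of at least 6 arrays it lay between -0.81 and 0.21 and was negative in 5 of 6. Because the 5 highest UCHL1 tumors stand above a gap, r was also computed without them. Among the other 46 tumors it was -0.38, with rho -0.43, and the adjusted permutation p was 0.052 for r, which misses the threshold, and 0.019 for rho. The size of the change differed greatly between these genes, as the brightest BAP1 probe spanned 2.51-fold in all.

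**Figure D2:**
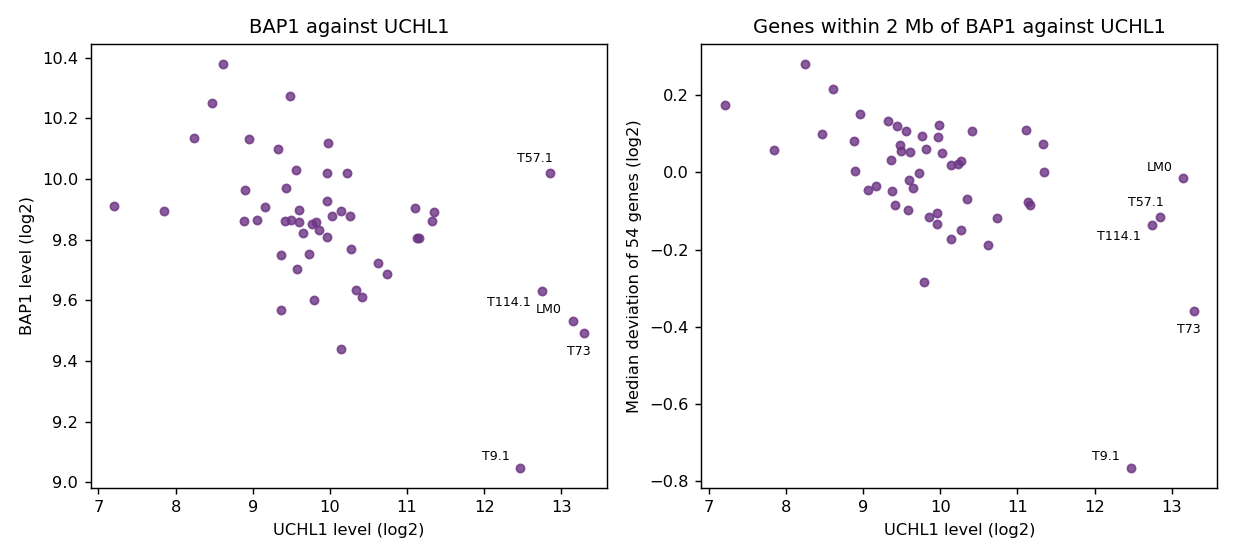
Left, BAP1 level against UCHL1 level (both log2, brightest probes), 1 point per tumor (n = 51). Right, the median over 54 genes within 2 Mb of BAP1 of each gene's deviation from its own median (log2) against UCHL1. In both panels points fall toward the right, and T9.1 is the lowest point, at 9.05 on the left and -0.76 on the right.

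UCHL1 and UCHL3, the closest relatives, were weakly related. Their r was 0.28 (95% interval 0.0024 to 0.51) and rho 0.29, with adjusted permutation p of 0.096 and 0.078, which did not pass. On deviations from slide means, without T6.2, r was 0.38 and passed (adjusted permutation p = 0.040). Against UCHL5, UCHL1 had an r of -0.0081 (95% interval -0.28 to 0.27, adjusted permutation p = 0.95). UCHL3 and UCHL5 rose together, with r = 0.35 (95% interval 0.077 to 0.57) and rho = 0.34 (adjusted permutation p of 0.036 and 0.045). Without T104 and T102, the tumors with the most and the least UCHL3, r was 0.33 and no longer passed (adjusted permutation p = 0.057). It was 0.31 without T132 (adjusted permutation p = 0.090) and 0.33 without the 5 tumors highest in UCHL1 (adjusted permutation p = 0.069). On deviations from slide means it was 0.48 (adjusted permutation p = 0.0029). UCHL3 and BAP1 (r = -0.25, adjusted permutation p = 0.11) and UCHL5 and BAP1 (r = 0.056, adjusted permutation p = 0.83) did not pass.

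Of 29 listed symbols of cell division genes, 23 were found on the array, and the mean of their levels in a tumor ran from 6.24 to 10.14 (median 7.75). UCHL1 followed this mean with r = 0.68 and rho = 0.58 over the 51 tumors, and with r = 0.44 in the 46 tumors below the gap. No test is given for UCHL1, since the reference tumors on which it was chosen had been sorted partly by mitotic index. UCHL3, which was not picked in this way, followed it with r = 0.58 and rho = 0.62 (adjusted permutation p of 6e-05 and 3e-05, the latter from the smallest p these permutations can give). Without T104 and T102 its r was 0.55 (adjusted permutation p = 0.00039), and within 6 scan sessions it lay between 0.11 and 0.93. For UCHL5 r was 0.35 and rho 0.37 (adjusted permutation p of 0.017 and 0.012), and without T132 and T135 r was 0.35 (adjusted permutation p = 0.021). On deviations from scan session means it was 0.28 (n = 46) and did not pass (adjusted permutation p = 0.074). BAP1 ran the other way, with r = -0.32 (adjusted permutation p = 0.022), but rho was -0.25 (adjusted permutation p = 0.080) and without T9.1 and T6.2 r was -0.24 (adjusted permutation p = 0.10). It was -0.17 without T9.1 and T73 (adjusted permutation p = 0.24) and -0.078 without the 5 tumors highest in UCHL1 (adjusted permutation p = 0.61), so that relation did not hold without a few tumors.

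Markers of other cell types moved with some members, and their part in these relations was not tested. For UCHL3 the list with the highest r was that of keratinocytes, the cells of the epidermis. Of 10 listed genes 7 were found, their mean level ran from 2.29 to 13.61 among tumors, none was well above background on all arrays, and the mean correlated with UCHL3 at r = 0.68. TP63, a defining gene of basal keratinocytes, was well above background in 4 tumors. UCHL1 had an r of -0.055 with the same mean. UCHL3 also had an r of 0.51 with the melanocyte mean and 0.42 with the skeletal muscle mean. It ran against the macrophage (-0.52), neuroendocrine (-0.51) and fibroblast (-0.41) means. With the B and plasma cell, T cell, endothelial and nerve and Schwann cell means, r of UCHL3 lay between -0.15 and 0.086. For UCHL1 the list with the highest r, cell division apart, was that of neutrophils. All 5 neutrophil genes found of 8 had r above 0, their mean level ran from 6.41 to 13.17, and r with that mean was 0.57. The lowest of the 5 was LTF at 0.053. S100A8, a calcium-binding protein that neutrophils carry in bulk, ran from 7.34 to 17.64 and had an r of 0.49 with UCHL1. UCHL3 had an r of 0.50 with the neutrophil mean, but the 5 genes did not move as one with it. S100A8 was at 0.60 with UCHL3, S100A9 at 0.57, LTF at 0.37, CSF3R at 0.078 and CAMP at -0.40. With UCHL1, CSF3R was at 0.60. The mean of the 5 mast cell genes had an r of -0.45 with UCHL1, and each of the 5 was below 0, between -0.49 for FCER1A and -0.30 for MS4A2. With UCHL3 that mean had an r of -0.25, and each of the 5 was again below 0. For BAP1 the strongest relation was with the mean of skeletal muscle genes, 7 found of 9, at r = -0.45, but these genes did not move as one. TNNI2, well above background on all 51 arrays, had an r of 0.40 with BAP1, and ACTA1, also on all 51, -0.072. MYH2 (-0.48), TNNT3 (-0.45) and MB (-0.45) were well above background on 15, 9 and 21 arrays, and MYH1 and DES were at -0.29 and -0.26. UCHL5 had an r of -0.51 with the mean of 9 fibroblast genes.

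UCHL1 is known from neurons and neuroendocrine cells, and many markers of these cells were dim in the tumors. Of 13 nerve and Schwann cell genes found of 15, 7 were well above background in fewer than 10 tumors, among them PRPH, NEFM, NEFH, ELAVL4, S100B and CDH19, and CDH19 was so in 0. Of 8 neuroendocrine genes found of 10, 5 were that dim (CHGB, SCG2, SYP, PCSK1 and NCAM1). ENO2, TUBB3, SNAP25, NEFL and STMN2 were well above background in all 51 tumors, and the highest r with UCHL1 among them was 0.34 for TUBB3, a tubulin of neurons.

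**Figure D3:**
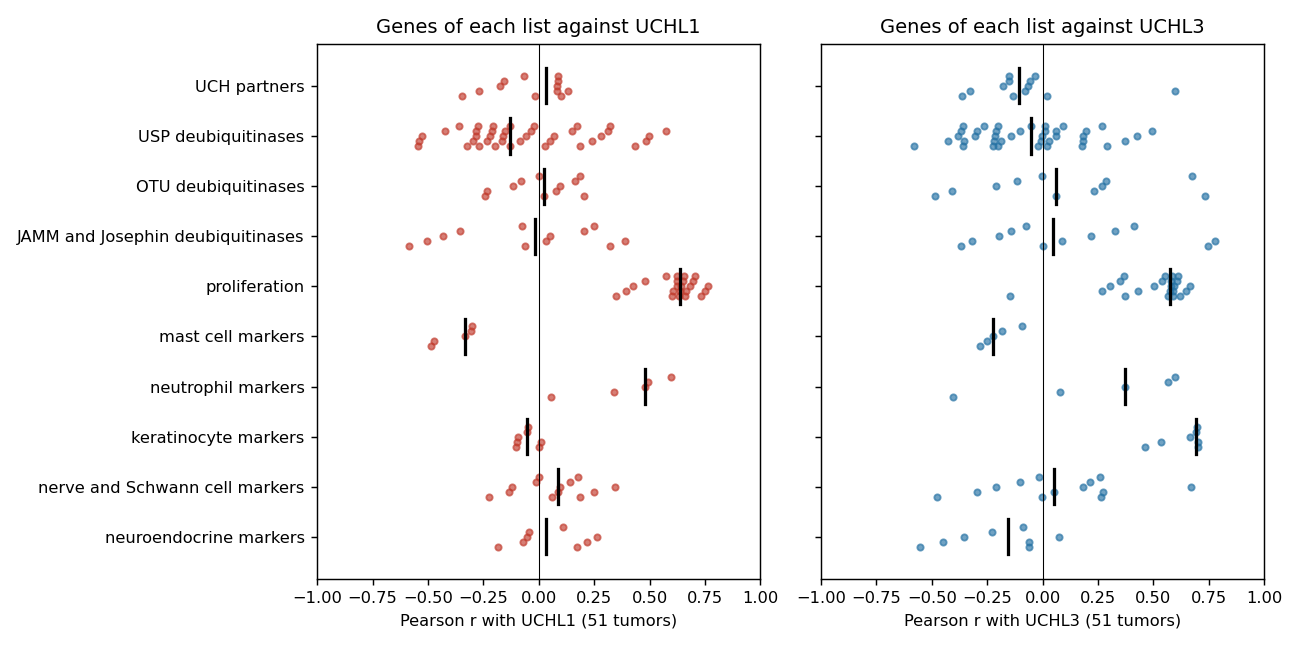
Pearson's r over 51 tumors between each listed gene (1 point, brightest probe) and UCHL1 on the left or UCHL3 on the right, with a black bar at the median of each list. Cell division genes lie mostly to the right (median 0.64 for UCHL1 and 0.57 for UCHL3, where MCM2 is at -0.15), keratinocyte genes only for UCHL3, and mast cell genes lie left of 0 for both UCHL1 and UCHL3.

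Other deubiquitinases were read from lists of the ubiquitin-specific proteases (USP), the OTU family and the JAMM and Josephin families. The lists go by family, so members without deubiquitinase activity, such as PSMD7, are counted among them. Of 82 listed symbols 62 were found, and 50 were well above background in all tumors. UCHL1 spread more than 58 of the 62: the 4 with a larger SD were OTUB2, USP18, TNFAIP3 and YOD1, and the median SD was 0.35. As a group they did not follow UCHL1. The median r was -0.069, and 27 of 62 were above 0, against a median of -0.00042 over all 11689 symbols.

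CYLD, which trims linear and lysine-63 ubiquitin chains in NF-kB signaling, had the highest r with UCHL1 at 0.58 and ran from 9.39 to 11.73. USP32 (0.50) and USP38 (0.48) came next. The lowest were MPND at -0.59, USP34 at -0.54 and USP19 at -0.54, where USP34 acts in Wnt signaling. Only CYLD exceeded 0.5, while 5 of 62 lay under -0.5, against 3.87% and 3.44% of all 10451 symbols bright enough to be ranked. Among 12 partner genes found of 19, r with UCHL1 ran from -0.34 for FOXK2, a BAP1 partner, to 0.13 for YY1.

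The relatives had other genes of these families at the top, named here after their values were seen. For UCHL5 they were PSMD14 (r = 0.60), the deubiquitinase built into the proteasome lid, and USP14 (r = 0.58), which binds the proteasome base. ADRM1, the proteasome receptor that holds UCHL5, had an r of 0.38 with UCHL5 and 0.60 with UCHL3. For UCHL3 they were PSMD7 (0.78), a lid subunit without deubiquitinase activity, PSMD14 (0.74) and OTUB2 (0.73). For BAP1 they were USP4 (0.57) and USP19 (0.52), which lie 2.59 and 2.71 Mb from it on chromosome 20.

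The 10 symbols most like UCHL1 had an r between 0.77 and 0.74, a description, since UCHL1 was chosen on reference tumors sorted partly by mitotic index. CENPA (0.77), the histone of centromeres, AURKA (0.77) and PBK (0.76), mitotic kinases, TPX2 (0.75) and DLGAP5 (0.75), spindle proteins, and SPC25 (0.74), a kinetochore subunit, were among them. UBE2S (0.75) adds ubiquitin together with the anaphase-promoting complex. MTHFD2 (0.77) is a mitochondrial folate enzyme and CARHSP1 (0.75) an RNA-binding protein. CYB5B (r = 0.75), a cytochrome b5 of the outer mitochondrial membrane, had the highest rho of the 10 at 0.83. It was also the one of them that stayed among the 10 most like when the 5 highest tumors were left out, with r = 0.72 at rank 1, while the r of the 10 then ran from 0.50 to 0.72. All 10 stayed above 0, and their ranks ran from 1 to 146 of 10451. Of the symbols ranked, 404 exceeded 0.5.

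At the other end stood ABHD14B (r = -0.77), a hydrolase, SPATA7 (-0.75), known from the photoreceptor cilium, PPFIBP2 (-0.73), a liprin, PNPLA7 (-0.72), a lysophospholipase, and AHNAK (-0.71), a large scaffold protein. SPATA7 ran from 9.51 to 11.40 and was lowest in T73, the tumor with the most UCHL1. It kept an r of -0.68 without the 5 highest tumors. ABHD14B was then at -0.54, PPFIBP2 at -0.51, PNPLA7 at -0.61 and AHNAK at -0.57. Counted from the lowest r, SPATA7 was then at rank 4, PNPLA7 at 40, AHNAK at 119, ABHD14B at 177 and PPFIBP2 at 279.

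Each relative had a different set of most similar genes. For UCHL3 these were GGCT (r = 0.88), a glutathione-cycle enzyme, ARPC5L (0.86), of the actin-nucleating complex, REEP4 (0.83), which clears membranes from chromatin at mitosis, TUBA3C (0.83), a tubulin, and TXNL4A (0.82), a splicing factor. For UCHL5 they were C18H11orf98 (0.76), DUSP19 (0.75), a phosphatase, GABPA (0.73), a transcription factor, PSMA6 (0.72), a proteasome core subunit, and TFB1M (0.70), which modifies mitochondrial ribosomal RNA. T132 carried part of this: without it r was 0.53 for DUSP19 and 0.55 for GABPA, but 0.76 for C18H11orf98 and 0.70 for PSMA6. DUSP19 and GABPA were highest of all tumors in T132, as UCHL5 was.

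BAP1 was most like its neighbors on the chromosome. TMEM115 (r = 0.74), a Golgi protein, and PCBP4 (r = 0.74), an RNA-binding protein, lie 1.64 and 0.39 Mb from it, at chr20:42001546-42001605 and chr20:40753236-40753295. PTPRA (0.69), GNB4 (0.68) and NR1H2 (0.67) followed from other chromosomes. ABHD14B, the gene least like UCHL1 over the 51 tumors, also lies on chromosome 20, 0.38 Mb from BAP1, and had an r of 0.60 with BAP1.

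Of the 54 other symbols within 2 Mb of BAP1, 45 had a positive r with it (83.3%), with a median of 0.30. The 63 symbols 2 to 5 Mb away had a median of 0.33, the 420 farther away on chromosome 20 a median of 0.052 and the 9901 on other chromosomes a median of -0.0059. An r over 0.5 was found for 7 of the 54 nearest genes, for 12 of the 63 that lay 2 to 5 Mb away and for 0.93% of genes on other chromosomes. Without the 5 tumors highest in UCHL1 the medians were 0.22 within 2 Mb, 0.23 at 2 to 5 Mb and 0.0080 on other chromosomes. The other members had fewer neighbors, and theirs gave medians of -0.011 for UCHL1 (19 genes), -0.22 for UCHL3 (7 genes) and 0.29 for UCHL5 (7 genes). Genes side by side share neither probes nor a test here, and these shares are descriptions.

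**Figure D4:**
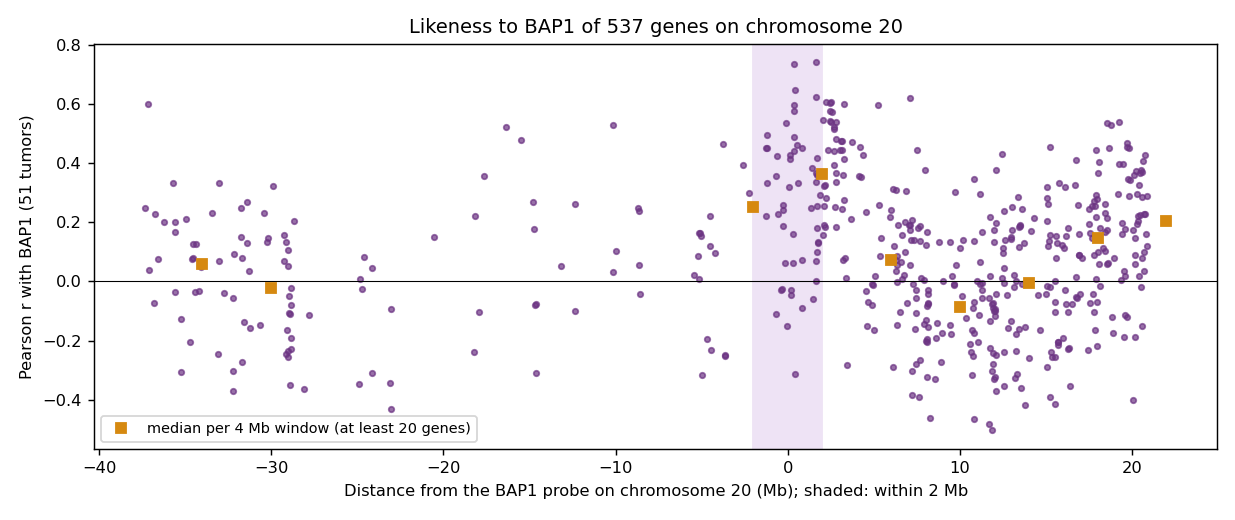
Pearson's r over 51 tumors between BAP1 and each of the other ranked symbols on chromosome 20, by distance from the BAP1 probe in Mb, with the range within 2 Mb shaded and orange squares for the median of 4 Mb windows with at least 20 genes. The window from 0 to 4 Mb has a median of 0.36, that from 4 to 8 Mb 0.071 and that from 8 to 12 Mb -0.085, while those from 16 to 20 and from 20 to 24 Mb have medians of 0.15 and 0.20.

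Some tumors had low levels across this neighborhood. In T9.1 44 of the 54 genes were below their own median over the tumors, with a median deviation of -0.76 (log2), and BAP1 itself was at -0.81. In T73 44 of 54 were below, with a median of -0.36 and BAP1 at -0.37. T55, where UCHL1 was at 9.80, near its median, was nearly as low, with 43 of 54 below, a median of -0.28 and BAP1 at -0.26. LM0 differed, with a BAP1 deviation of -0.33 but 27 of 54 neighbors below and a median of -0.014. Over all genes of chromosome 20 the median deviation was -0.14 in T9.1 and 0 in T73, and over genes of other chromosomes 0.017 and 0.046. The neighborhood's median deviation had an r of 0.78 with BAP1 and of -0.57 with UCHL1 over the 51 tumors. Without T9.1 and T73, r between UCHL1 and BAP1 was -0.40 (adjusted permutation p = 0.025).

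Sex, age and breed from the labels were compared with limma over all probes, with Benjamini-Hochberg adjustment and a threshold of 0.05, and no member probe passed in any comparison. Between female and male dogs 27 of 43603 probes (0.0619%) were called, and 0 of the 7 member probes. UCHL1 ran from 8.88 to 13.29 with a median of 9.75 in 30 females and from 7.20 to 13.15 with a median of 9.82 in 19 males. The ranges overlapped nearly whole, and the difference, female minus male, was -0.014 (95% interval -0.76 to 0.74, adjusted p = 0.996). The interval therefore leaves room for a difference of up to 0.76 either way. UCHL5 had the smallest p of the members, with a difference of -0.11 (95% interval -0.24 to 0.018, adjusted p = 0.79), and its highest tumor, T132, has no sex in the labels. For UCHL3 the difference was 0.023 (-0.26 to 0.30) and for BAP1 0.072 (-0.067 to 0.21), both by the brightest probe.

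With age 0 of 43603 probes (0%) were called by limma, and 1061 had an unadjusted p under 0.05. None of the 7 member probes was among the called. The slope of UCHL1 was 0.10 per year (95% interval -0.029 to 0.24, adjusted p = 0.9999) with the brightest probe and 0.18 (-0.031 to 0.39) with the other. The slopes of UCHL3 and UCHL5 were 0.012 (-0.039 to 0.063) and 0.0053 (-0.019 to 0.030), and those of the 3 BAP1 probes lay between -0.040 and -0.0052.

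Among breeds limma called 27 probes (0.0619%) between Boxer and Labrador Retriever dogs, 16 (0.0367%) between Boxer and Crossbred and 7 (0.0161%) between Labrador Retriever and Crossbred dogs, and 0 of the 7 member probes in each. With slide as a fixed block these counts were 0 (2947 at an unadjusted p under 0.05), 6 and 3. UCHL1 ran from 8.24 to 12.75 (median 9.65) in 9 Boxers, from 8.47 to 13.29 (median 9.48) in 9 Labrador Retrievers and from 8.88 to 12.85 (median 10.06) in 14 Crossbreds, so that each breed held 1 of the 5 highest tumors. The Boxer minus Labrador Retriever difference was 0.088 (95% interval -1.15 to 1.32), which does not limit UCHL1 to less than a doubling either way, and with slide as a fixed block it was -0.71 (-2.21 to 0.80). UCHL3 gave the smallest p, for Boxer minus Crossbred, where the mean was 12.42 ± 0.34 (SD, n = 9) against 12.04 ± 0.42 (SD, n = 14). That difference of 0.38 (95% interval -0.028 to 0.78) did not pass (limma adjusted p = 0.9999). All 7 keratinocyte genes were also higher in Boxers than in Crossbreds, with a median difference of 2.59 and 0 called, and their part in the UCHL3 difference was not tested. Of the 62 other deubiquitinases and 12 partner genes, 0 were called in any of the 5 comparisons.

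**Figure D5:**
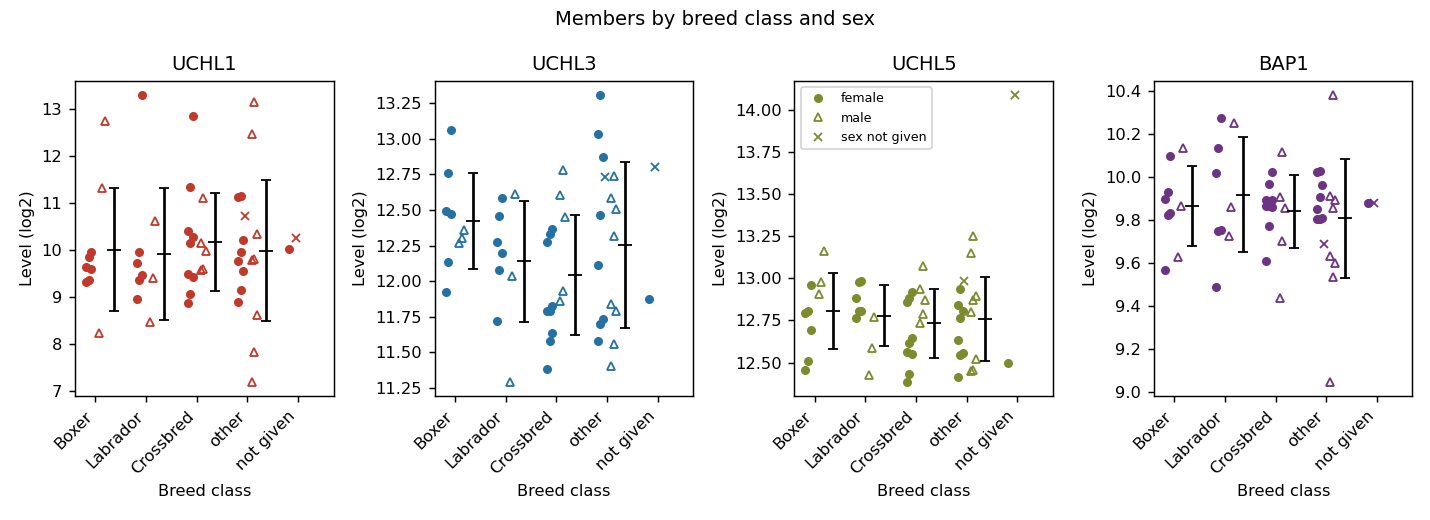
Log2 level of each member (brightest probe) by breed class, 1 symbol per tumor, filled circles for females, open triangles for males and crosses where the sex is not given; black bars are the mean ± SD of a breed class, and the tumors without a breed carry no bar. Values of the breeds overlap in every panel, and the UCHL5 level of T132, at 14.09, stands alone among tumors without a breed.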

How the data were processed

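RNA of 51 MCTs was amplified, labeled with Cy3 and hybridized to one-color Agilent canine arrays. The authors extracted the scans with Feature Extraction 9.5.1.1 and deposited each array's processed signal as an intensity with the background subtracted, together with a table of intensities they had quantile-normalized over all arrays, with missing values imputed, used here as an alternative. The file of T80 holds signals rounded to about 3 digits. Control spots were left out here, and outlier spots, 2 to 35 per array, were set to missing. Signals were put on the log2 scale, quantile-normalized and averaged per probe with limma 3.58.1 (R 4.3.3, statmod 1.5.0). Adjusted p for sex, age and breed are limma's. Correlations used 100000 permutations (numpy 2.4.6, scipy 1.17.1), and figures matplotlib 3.10.9. Both tests were checked on simulated data. Intervals of r use Fisher's transformation.

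One probe per gene, the brightest, was used unless stated. Ranked symbols were well above background on at least 10 arrays. Named genes are the members, the 10 most and 5 least like UCHL1, the 5 most like each relative, and the 3 highest and 3 lowest deubiquitinases or partners against UCHL1. The members and lists were chosen with earlier results of these data known. Of 3211 LOC names, 2235 were given symbols through RefSeq.

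The alternatives were other normalizations and background correction, the deposited table, dim probes left out, outlier spots kept, slide as a random or fixed block, sex or age as a covariate, other probes, Spearman's rho and subsets of tumors. The subsets without the 5 highest UCHL1 tumors, without T132 or without T9.1 and T73, and the single other probes in the correlations, were chosen after seeing the data. Lists of B cell, T cell, macrophage, fibroblast, endothelial, melanocyte and skeletal muscle markers had an r of 0.015, 0.087, 0.13, 0.027, 0.22, -0.093 and 0.32 between their mean and UCHL1. Values of some listed genes are not reported here.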

Additional observations from a re-analysis of the deposited data

How the results depend on the processing

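No member probe passed in any of the 5 comparisons under any of the 280 alternative values (lowest adjusted p 0.57), and 260 kept their direction. With slide as a fixed block the Boxer minus Labrador Retriever difference turned to -0.71 and -0.83 for the UCHL1 probes and to 0.20, 0.30 and 0.41 for the BAP1 probes, and the Labrador Retriever minus Crossbred difference to 0.45 and 0.41 for UCHL1 and to -0.0074, -0.022 and -0.089 for BAP1. The second BAP1 probe turned to 0.0050 with normexp, 0.099 with the authors' table and 0.038 with slide as a random block for Boxer minus Labrador Retriever, where the brightest UCHL1 probe turned to -0.088 with the random block. The second BAP1 probe also turned for female minus male, to 0.040 with the 75th percentile, 0.010 and 0.11 with slide as a random and a fixed block and 0.0099 with age as a covariate. With the 75th percentile UCHL3 turned to -0.0073 for female minus male, and the second UCHL1 probe to 0.010 for Boxer minus Crossbred. Of the counts over all probes, slide as a fixed block left 0 called by limma for Boxer minus Labrador Retriever (2947 at an unadjusted p under 0.05), 6 for Boxer minus Crossbred and 3 for Labrador Retriever minus Crossbred, where normexp also gave 3.

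Of the alternative correlations 110 kept their direction and their side of the threshold, 7 turned, 10 no longer passed and 4 newly passed. UCHL1 and UCHL3 passed with the 75th percentile (r = 0.31), with the mean over probes (0.30) and on deviations from slide means (0.38). UCHL1 and UCHL5 turned to 0.061 with the 75th percentile, 0.021 with normexp, 0.012 with the mean over probes, 0.095 and 0.031 on deviations from slide and session means and 0.025 with the other UCHL1 probe, none of which passed. UCHL5 and BAP1 turned to -0.0016 with the 75th percentile. UCHL1 and BAP1 no longer passed without the 5 tumors highest in UCHL1 (-0.38), where UCHL1 against cell division genes fell to 0.44, BAP1 against them to -0.078 and UCHL3 against UCHL5 to 0.33. UCHL3 and UCHL5 no longer passed without the 2 tumors farthest from the median of UCHL3 (0.33) or without T132 (0.31), and UCHL3 and BAP1 passed with the mean over probes (-0.30). Against cell division genes UCHL5 (0.28) and BAP1 (-0.30) no longer passed on deviations from session means, and BAP1 did not without the 2 farthest tumors (-0.24), with the second BAP1 probe (-0.26) or without T9.1 and T73 (-0.17). The cause of these changes was not tested. Of the 10 genes most like UCHL1, 8 remained among the 10 with the 75th percentile and with the authors' table, 5 with the other UCHL1 probe, 3 by Spearman's rho and 1 without the 5 highest tumors.

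Precision is limited by 1 array per tumor and by dim signals: the second UCHL1 probe was not well above background in 14 tumors and the third BAP1 probe in 1. The share of spots well above background had an r of 0.019 with UCHL1, 0.19 with UCHL3, -0.27 with UCHL5 and -0.15 with BAP1. The median signal before normalization had an r of 0.41 with UCHL3.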
